A study of Mus musculus with 12 samples.

Results

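The genes described here encode 10 enzymes that make NADPH, or the substrates and cofactor needed for it, in the liver. They are G6pdx, H6pd, Pgls and Pgd of the oxidative branch of the pentose phosphate pathway, Taldo1, Tkt and Rpia of its non-oxidative branch, the cytosolic dehydrogenases Idh1 and Me1, and the NAD kinase Nadk. They were chosen by name from the 24062 genes in the count tables, and all 10 passed the filter on low counts that left 12481 genes in the test. Liver RNA was sequenced from 12 female C57BL/6J mice, 6 on a control diet and 6 given BIBB-515 in that diet (55 mg per kg of body weight, 10 days). C57BL/6J is an inbred laboratory strain, and no engineered allele is named for either group. The mice arrived at 6 weeks of age, were acclimated for 2 weeks and ate the control diet for 3 days before the start, and they were housed in shared cages that the labels do not name. BIBB-515 is an inhibitor of lanosterol synthase, the enzyme encoded by Lss that closes the sterol ring in cholesterol synthesis. The comparison asks how the genes of NADPH supply differed in liver mRNA when this step was inhibited by diet. Mice are named by diet and by the number in their labels, 1 to 6 for the control diet and 6 to 11 for BIBB-515.

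NADPH is the reducing agent of the cytosol and the endoplasmic reticulum. Fatty acid synthesis, the late steps of cholesterol synthesis, cytochrome P450 reactions and the recycling of glutathione all consume it. In the oxidative branch of the pentose phosphate pathway, glucose-6-phosphate dehydrogenase and 6-phosphogluconate dehydrogenase each make NADPH as glucose-6-phosphate is turned into ribulose-5-phosphate. The non-oxidative branch then interconverts sugar phosphates and returns carbon to glycolysis. In rodent liver, G6pdx and Me1 are textbook lipogenic genes, which respond to feeding, insulin and dietary carbohydrate.

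The libraries held between 22764819 and 31058370 reads on genes, with 22764819 to 27914647 in control mice and 24223939 to 31058370 in BIBB-515 mice. Levels are given as CPM, the counts of a gene relative to the scaled size of its library (edgeR's TMM factors). The liver label was checked against marker genes: 10 of 10 hepatocyte markers were tested and their summed level was 148131 to 167134 CPM in control and 114037 to 129398 CPM in BIBB-515 mice. Most of that sum was Alb, and Ass1 of the same list had only 12 to 43 counts per library in the gene tables, against 35009 to 81227 in the tables of primary alignments, which keep reads over several genes. Alb, Ttr and Serpina1c of that list were lower on BIBB-515. Of the markers of other cells, the stellate genes Lrat and Dcn were lower and the fat gene Lipe was higher, and the macrophage, leukocyte, endothelial, bile duct and erythroid lists held no call by edgeR, with 1 gene (bile duct) at an unadjusted p under 0.05. The summed macrophage level was 440 to 723 CPM in control and 456 to 756 CPM in BIBB-515 mice, and the 4 globin genes of the erythroid list were at 0 in the gene tables of all libraries but had 247 to 4004 counts each in the tables of primary alignments, so that their 0 is no measure of blood. The part of these marker differences in the results below was not tested. In whole liver, fewer cells of a type and less RNA per cell cannot be told apart.

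Of the 10 genes, 1 passed a false discovery rate (FDR) of 0.05 in edgeR's quasi-likelihood test over all genes, beside 13.7% of all tested genes called in either direction. That gene was Pgls, which was higher on BIBB-515. At an unadjusted p under 0.05 there were 3 genes, beside 3713 of all 12481 tested genes. Of these 3, Pgls and Tkt were higher and G6pdx was lower. DESeq2, limma-voom and edgeR's likelihood ratio test each called the same single gene, Pgls. Without a filter on low counts Pgls did not pass (edgeR FDR 0.0514), and with 1 surrogate variable G6pdx (log2 fold change -1.06), H6pd, Pgls and Tkt were called. The fit with a surrogate variable called 2407 of all 12481 tested genes, against 1705 in the main fit. The groups overlapped for all 10 genes, beside 7.07% of all tested genes with groups that did not overlap. With a share that small, overlap in all 10 genes does not set them apart. Control mice differed among themselves by more than the diets did for several of the genes, as the values by mouse show.

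**Figure D1:**
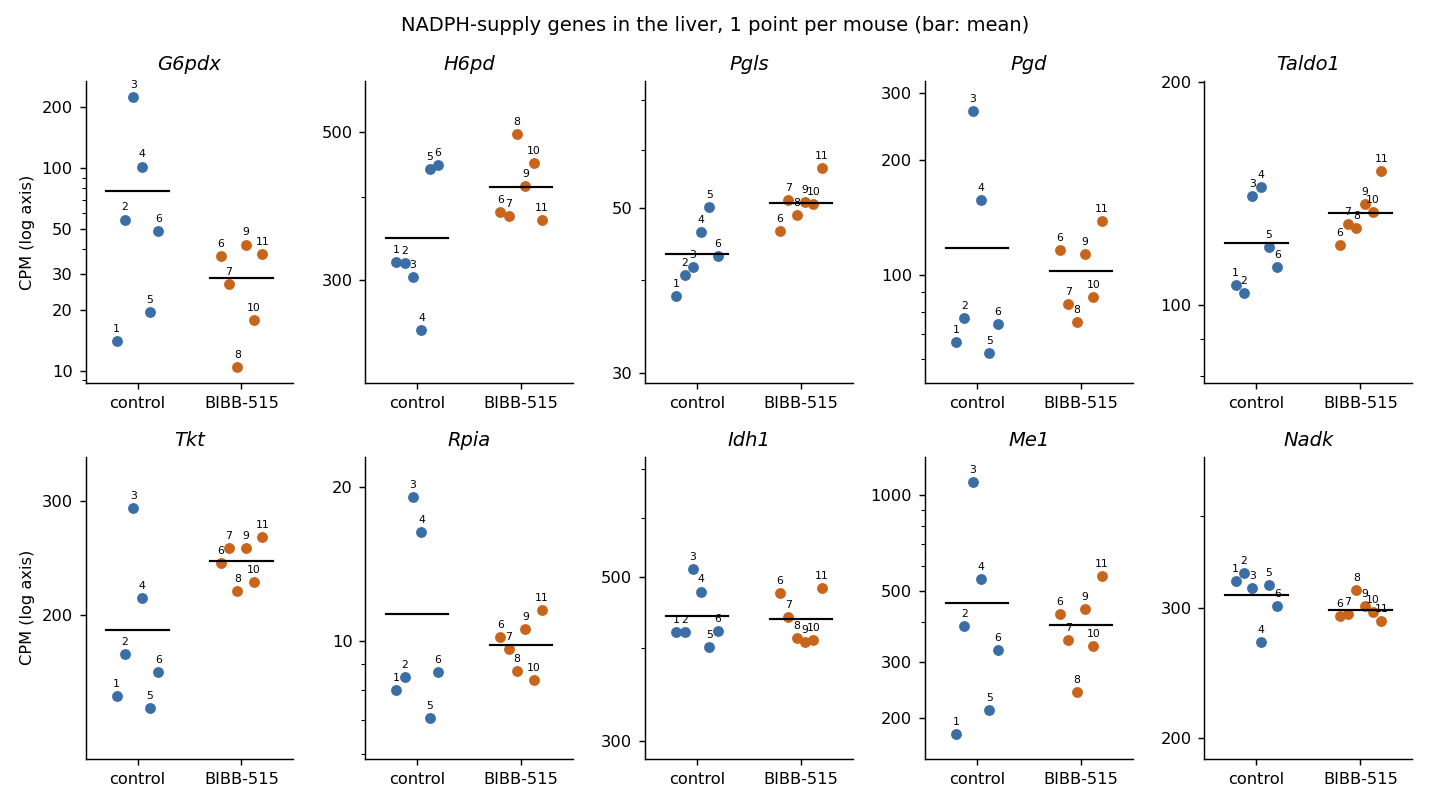
Level of each gene in CPM (log axis) in the 6 control mice (blue) and the 6 BIBB-515 mice (orange). Each point is 1 mouse with its number and the bar is the mean. Control mouse 3 stands highest for G6pdx (225 CPM), Pgd, Tkt, Rpia, Idh1 and Me1 among the control mice, and the highest of the BIBB-515 mice has 4.03 times the G6pdx of the lowest, against 16.0 times in control mice.

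G6pdx (chrX:74409486-74429161, minus strand, mm10) encodes glucose-6-phosphate dehydrogenase, the enzyme that commits glucose-6-phosphate to the pathway and makes its first NADPH. Its level in control mice 1 to 6 was 14.0, 55.9, 225, 102, 19.6 and 49.3 CPM. In BIBB-515 mice 6 to 11 it was 37.1, 27.0, 10.5, 42.1, 17.9 and 37.8 CPM. Control mice 3 and 4 were far above all others, while control mice 1 and 5 were within the BIBB-515 range. The mean was 77.6 ± 78.6 CPM (SD, n = 6) in control and 28.7 ± 12.5 CPM (SD, n = 6) in BIBB-515 mice. The log2 fold change was -1.43 (SE 0.56, 95% interval -2.63 to -0.24), which did not pass the adjustment over all genes (edgeR FDR 0.0998). The exact permutation test of log2 CPM gave an unadjusted two-sided p of 0.19. Without control mouse 3 the log2 fold change was -0.74 (edgeR FDR 0.293).

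H6pd (chr4:149979474-150009023, minus strand) encodes hexose-6-phosphate dehydrogenase, which performs the same first step, and the next one, inside the endoplasmic reticulum. The control mice, 1 to 6, had 319.8, 319, 303, 253, 439 and 446 CPM. BIBB-515 mice 6 to 11 had 379.6, 374, 496, 414, 449 and 369 CPM. Control mice 3 and 4, the highest for G6pdx, were the lowest for H6pd, and all 6 BIBB-515 mice were above the control mean of 347 ± 78.1 CPM (SD, n = 6). The estimate for H6pd (log2 fold change) was 0.26 (SE 0.13, edgeR FDR 0.216). 

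Pgls (chr8:71592184-71596267, plus strand) encodes 6-phosphogluconolactonase, which opens the lactone made by the dehydrogenase. Control mice 1 to 6 had 38.1, 40.6, 41.7, 46.4, 50.2 and 43.1 CPM. In mice 6 to 11 on BIBB-515 it was 46.6, 51.4, 48.9, 51.0, 50.7 and 56.6 CPM. All 6 BIBB-515 mice were above the control mean and 4 of them were above every control mouse. The log2 fold change was 0.23 (SE 0.07, 95% interval 0.08 to 0.38, edgeR FDR 0.0446), and the exact permutation test gave an unadjusted two-sided p of 0.00866. The call was close to the threshold. It was lost, with edgeR FDR of 0.0626 to 0.0988, when control mouse 1, 2, 3 or 6 or BIBB-515 mouse 7, 8, 9, 10 or 11 was left out.

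Pgd (chr4:149149985-149166707, minus strand) encodes 6-phosphogluconate dehydrogenase, the second NADPH-producing step. Across control mice 1 to 6 it was at 66.4, 77.0, 269, 158, 62.3 and 74.1 CPM. Mice 6 to 11, on BIBB-515, had 116, 83.9, 75.2, 113, 87.6 and 138 CPM. The median was 75.6 CPM in control and 100.4 CPM in BIBB-515 mice, although the control mean of 118 ± 82.2 CPM (SD, n = 6) was above the BIBB-515 mean of 102 ± 24.0 CPM (SD, n = 6). On the log2 scale the fold change was -0.20 (SE 0.33, edgeR FDR 0.724) with all mice and 0.23 (edgeR FDR 0.545) without control mouse 3. No direction can be given for this gene.

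In the non-oxidative branch, Tkt (chr14:30549131-30574726, plus strand) encodes transketolase, which moves 2-carbon units between sugar phosphates. Its level in control mice 1 to 6 was 150.2, 174, 293, 212, 144 and 163 CPM. In BIBB-515 mice 6 to 11 it was 241, 254, 218, 254, 225 and 265 CPM. Control mouse 3 was above all BIBB-515 mice, and the other 5 control mice were below all of them. The log2 fold change was 0.36 (SE 0.15, 95% interval 0.04 to 0.67, edgeR FDR 0.12), and the exact permutation test gave an unadjusted two-sided p of 0.0411. Without control mouse 3 it was 0.53 (SE 0.10, edgeR FDR 0.00304), in a comparison that called 14.6% of all tested genes. That mouse was the only control mouse not below the BIBB-515 mice, so leaving it out fixed the separation of the groups. This call is therefore no separate support. In the other 11 fits with a mouse left out, Tkt was not called (edgeR FDR of 0.114 to 0.22).

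Taldo1 (chr7:141392160-141402976, plus strand) encodes transaldolase, the partner of transketolase. It ranged from 104 to 144 CPM, with a median of 116 CPM, in control mice and from 121 to 152 CPM, with a median of 131 CPM, in BIBB-515 mice. For Taldo1 the log2 fold change was 0.13 (SE 0.09, edgeR FDR 0.347). Rpia (chr6:70765720-70792175, minus strand) encodes ribose-5-phosphate isomerase, which makes the ribose-5-phosphate used for nucleotides. Mice 1 to 6 on the control diet had 8.01, 8.50, 19.1, 16.3, 7.05 and 8.68 CPM. BIBB-515 mice 6 to 11 had 10.2, 9.62, 8.74, 10.5, 8.40 and 11.5 CPM. Control mice 3 and 4 again stood above the rest. The log2 fold change of Rpia was -0.20 (SE 0.22, edgeR FDR 0.6) with all mice and 0.02 (edgeR FDR 0.954) without control mouse 3.

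Outside the pathway, Me1 (chr9:86581363-86695914, minus strand) encodes the cytosolic malic enzyme, which makes NADPH as malate becomes pyruvate. In control mice 1 to 6 the level was 178, 388, 1098, 543, 211 and 325 CPM. On BIBB-515, mice 6 to 11 had 422, 349.7, 240.5, 438, 336 and 555 CPM. The control mice spanned the whole BIBB-515 range and went beyond it on both sides. For Me1 the log2 fold change was -0.23 (SE 0.36, edgeR FDR 0.718) with all mice, 0.25 (edgeR FDR 0.566) without control mouse 3, and 0.01 by limma-voom. The 95% interval of Me1 with all mice ran from -1.01 to 0.55.

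Idh1 (chr1:65158616-65186479, minus strand) encodes the cytosolic isocitrate dehydrogenase. It was the most even of the dehydrogenases, at 402 to 513 CPM with a median of 422 CPM in control and 409 to 482 CPM with a median of 427 CPM in BIBB-515 mice. For Idh1 the log2 fold change was -0.01 (SE 0.08, 95% interval -0.18 to 0.15, edgeR FDR 0.927). Nadk (chr4:155562392-155591001, plus strand) encodes the cytosolic NAD kinase, which makes NADP+ from NAD+. It was at 269.8 to 334 CPM, with a median of 321 CPM, in control and at 289 to 317 CPM, with a median of 296 CPM, in BIBB-515 mice. The estimate for Nadk was a log2 fold change of -0.07 (SE 0.06, 95% interval -0.20 to 0.07, edgeR FDR 0.535).

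**Figure D2:**
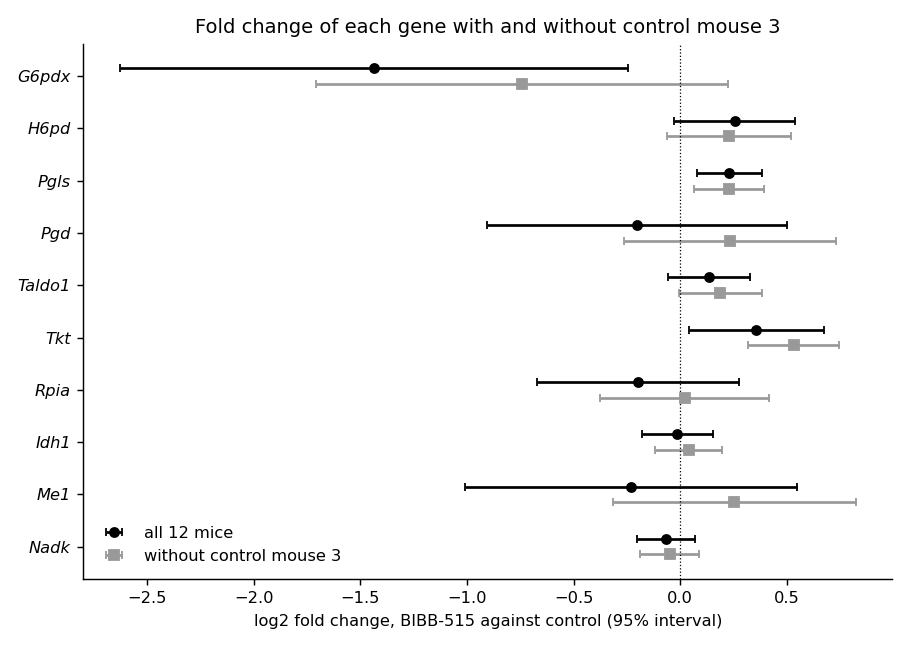
Log2 fold change of each gene, BIBB-515 against control, with its 95% interval from edgeR (not adjusted over genes), for all 12 mice (black circles) and without control mouse 3 (grey squares). The value of G6pdx moves from -1.43 to -0.74 and that of Tkt from 0.36 to 0.53, while Pgd, Rpia, Idh1 and Me1 change sign.

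The spread between control mice was large for a subset of the genes. The highest control mouse had 16.0 times the G6pdx of the lowest, 6.17 times the Me1, 4.32 times the Pgd and 2.70 times the Rpia. In BIBB-515 mice the same ratios were 4.03, 2.31, 1.84 and 1.37. The SD of log2 CPM over the control mice was larger for G6pdx than for 99.8% of all tested genes, and the corresponding shares were 99.1% for Me1, 98.5% for Pgd and 95.5% for Rpia. The control SD of Idh1, Pgls and Nadk was larger than that of only 24.3%, 27.4% and 15% of tested genes. The SD of G6pdx over the BIBB-515 mice was also larger than for 99.2% of genes, so that mice on both diets differed in this gene. Whether the spread itself differed between the diets was not tested.

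The same mice were high for several of the genes. Control mouse 3 was the highest control mouse for 6 of the 10 genes (G6pdx, Pgd, Tkt, Rpia, Idh1 and Me1), control mouse 4 was highest or second for 8, and BIBB-515 mouse 11 was the highest of its group for 7. These mice did not have the deepest libraries. Control mouse 3 had 22867565 reads on genes, control mouse 4 had 24628325 and BIBB-515 mouse 11 had 24728711. For the relation of G6pdx with the other 9 genes and with 12 genes of the lipogenic program, correlations of log2 CPM were computed within each diet over 6 mice, 42 relations in all. G6pdx was taken as the reference after its values were seen.

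In control mice, G6pdx went with Me1 (Pearson's r 0.99, exact permutation p 0.00139, adjusted 0.0194; Spearman's rho 1.0, exact permutation p 0.00278, adjusted 0.0389). Without mice 1 and 3, the 2 farthest from the median of G6pdx, r was 0.99. Pgd, Tkt, Rpia and Idh1 also passed by Pearson's r in control mice, at 0.91, 0.94, 0.90 and 0.88 with adjusted exact permutation p of 0.0219, 0.0219, 0.0408 and 0.0408. Their Spearman's rho, 0.94, 0.94, 0.89 and 0.89, did not pass after adjustment (exact permutation p 0.0538, 0.0538, 0.0824 and 0.0824), and r without mice 1 and 3 was 0.86, 0.96, 0.88 and 0.90. Pgls, Taldo1, H6pd and Nadk did not pass, and r was below 0 for H6pd (-0.49) and Nadk (-0.37).

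In BIBB-515 mice, 2 of the 9 relations of G6pdx passed by Pearson's r and 0 by Spearman's rho. They were Me1 (r 0.91, exact permutation p 0.00694, adjusted 0.0243; rho 0.94, adjusted exact permutation p 0.0538) and Tkt (r 0.87, exact permutation p 0.0181, adjusted 0.0408; rho 0.89, adjusted exact permutation p 0.0824). Without mice 8 and 10, the 2 lowest for G6pdx, r was 0.68 for Me1 and 0.02 for Tkt, so that the relation with Tkt rested on those mice. For H6pd, r was -0.85 with all 6 mice (adjusted exact permutation p 0.0681) and 0.57 without mice 8 and 10. For the lipogenic genes, 4 of 12 passed by Pearson's r in control mice and 9 of 12 in BIBB-515 mice, and 1 of 12 passed by Spearman's rho in each diet. The highest were Scd1, the stearoyl-CoA desaturase, in control mice (r 0.99, adjusted exact permutation p 0.0194) and Acaca, the acetyl-CoA carboxylase, in BIBB-515 mice (r 0.98, adjusted exact permutation p 0.0219). Without mice 8 and 10, r of G6pdx in BIBB-515 mice was 0.32 for Scd1 (0.95 with all 6), 0.57 for Thrsp (0.92) and 0.64 for Elovl6 (0.96), so that these relations rested in part on those mice, while it was 0.72 to 0.88 for the other 6 lipogenic genes that passed. Fasn, the NADPH-consuming fatty acid synthase, had 8368 CPM in control mouse 3 and 892 to 3136 CPM in the other control mice. Differences in the relations between the diets were not tested.

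**Figure D3:**
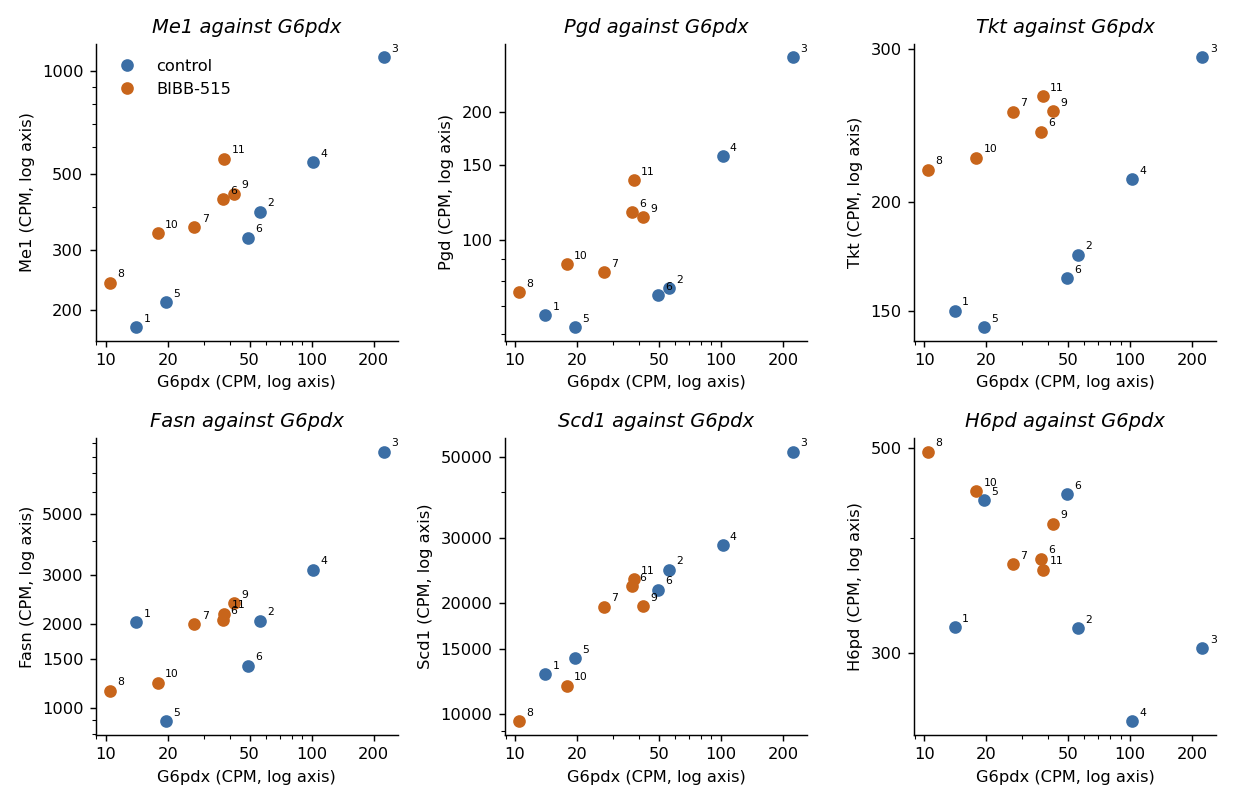
Levels of 6 genes against G6pdx (CPM, log axes), 1 point per mouse with its number, for control (blue) and BIBB-515 (orange) mice. Me1, Pgd, Tkt, Fasn and Scd1 climb with G6pdx towards control mouse 3, although Fasn did not pass in control mice (adjusted exact permutation p 0.0747). H6pd does not climb (r -0.49 in control and -0.85 in BIBB-515 mice, neither passing after adjustment).

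The promoters of the 10 genes were read from RefSeq's table (GRCm38.p6, 250 bases before to 50 after each start). All 10 genes matched, with 14 promoters. On either strand, TGACNNNGC, the core of the antioxidant response element that NRF2 binds, was in the promoters of 3 genes (G6pdx, Me1 and Pgd), or 3 of 14 promoters, beside 12.4% of all 32851 promoters. Tkt, Rpia and Idh1, which also went with G6pdx in control mice by Pearson's r, did not hold this core. CACGTG, the E-box, was in 1 of the 14 (Nadk) beside 7.15% of all promoters. TCACNCCAC, a form of the sterol regulatory element, was in none of them, beside 1.24% of all. GGGCGG, the GC box, was in 10 of the 14 beside 35.7% of all. The GC box was in 9 of the 10 genes. Among them were Nadk, Pgls and Taldo1, whose relation with G6pdx did not pass in control mice. None of these motifs was tested against the relations with G6pdx. The 3 stretches with the antioxidant response element core are shown because no other promoter of the 10 genes held it. They are in the sense of the gene, with the core in capitals.
G6pdx, chrX:74428919-74428947, minus strand: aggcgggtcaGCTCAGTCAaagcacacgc
Me1, chr9:86695902-86695930, minus strand: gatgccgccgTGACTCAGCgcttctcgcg
Pgd, chr4:149166061-149166089, minus strand: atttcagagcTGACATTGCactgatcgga
The core of G6pdx lies on the opposite strand, where it reads TGACTGAGC, 57 bases before RefSeq's start and within the first exon of the annotation used for counting. That of Me1 runs across the start, and that of Pgd lies after the start of RefSeq's second promoter for the gene.

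The bases before the starts of Me1, Tkt and Pgd are shown as examples with GC boxes among the genes that went with G6pdx. The boxes are in capitals, where CCGCCC is the box on the other strand. Genes whose relation with G6pdx did not pass hold such boxes too, and the part of the boxes in these relations was not tested.
Me1, chr9:86695915-86696164, minus strand: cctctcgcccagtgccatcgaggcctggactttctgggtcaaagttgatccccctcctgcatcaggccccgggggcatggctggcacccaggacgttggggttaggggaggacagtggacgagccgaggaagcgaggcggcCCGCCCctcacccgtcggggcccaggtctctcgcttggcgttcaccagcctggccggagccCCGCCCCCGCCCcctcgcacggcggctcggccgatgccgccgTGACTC
Tkt, chr14:30548881-30549130, plus strand: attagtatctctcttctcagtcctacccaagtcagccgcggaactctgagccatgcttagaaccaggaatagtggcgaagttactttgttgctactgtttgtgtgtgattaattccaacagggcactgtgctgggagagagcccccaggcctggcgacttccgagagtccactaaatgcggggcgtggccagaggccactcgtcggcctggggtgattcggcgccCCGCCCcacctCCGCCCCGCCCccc
Pgd, chr4:149166708-149166955, minus strand: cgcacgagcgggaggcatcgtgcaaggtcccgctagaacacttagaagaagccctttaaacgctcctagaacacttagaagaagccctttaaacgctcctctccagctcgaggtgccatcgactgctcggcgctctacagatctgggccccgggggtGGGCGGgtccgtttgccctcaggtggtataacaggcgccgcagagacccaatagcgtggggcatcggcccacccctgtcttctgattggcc
The capitals at the end of the Me1 sequence are the first 6 bases of its antioxidant response element core. In Tkt, 3 GC boxes stand in the last 25 bases before the start, and 1 stands in the Pgd sequence. A match describes letters in a window and does not show binding.

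Cytosolic enzymes were then compared with their relatives in other compartments within each mouse, where the log2 ratio of counts does not depend on scaling. Of 5 ratios listed, Me1/Me3 was not tested because Me3, a mitochondrial malic enzyme, averaged 0.227 CPM. Idh1/Idh2 was lower on BIBB-515, at 1.99 ± 0.28 (SD, n = 6) in control and 1.49 ± 0.15 (SD, n = 6) in BIBB-515 mice. The difference was -0.51 (exact permutation p 0.00866 two-sided, adjusted over the 4 tested ratios 0.0346), with 3 of 6 BIBB-515 mice below every control mouse. Idh2, the mitochondrial NADP-dependent isocitrate dehydrogenase, was itself higher, at 94.8 to 144 CPM in control and 149 to 168 CPM in BIBB-515 mice (log2 fold change 0.48, SE 0.09, edgeR FDR 0.00294), and its groups did not overlap. The adjusted p of the Idh1/Idh2 ratio was 0.0519 without control mouse 4 or BIBB-515 mouse 7 and 0.0606 without BIBB-515 mouse 8, 9 or 10.

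The other ratios did not pass. Nadk/Nadk2, the cytosolic over the mitochondrial NAD kinase, was 1.55 ± 0.17 (SD, n = 6) in control and 1.34 ± 0.11 (SD, n = 6) in BIBB-515 mice (difference -0.21, exact permutation p 0.0303, adjusted 0.0606). It passed without control mouse 6 (difference -0.26, adjusted exact permutation p 0.0173) or without BIBB-515 mouse 11 (-0.24, adjusted exact permutation p 0.0433). G6pdx/H6pd was -2.74 ± 1.66 (SD, n = 6) in control and -3.99 ± 0.93 (SD, n = 6) in BIBB-515 mice (difference -1.25, exact permutation p 0.136, adjusted 0.182). It ran from -4.51 in control mouse 1 to -0.43 in control mouse 3. Me1/Me2, over the mitochondrial Me2 with only 2.65 CPM in control mice, was 7.16 ± 0.81 (SD, n = 6) and 7.15 ± 0.57 (SD, n = 6), with a difference of -0.01 (exact permutation p 0.983) that turned to 0.24 without control mouse 3.

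**Figure D4:**
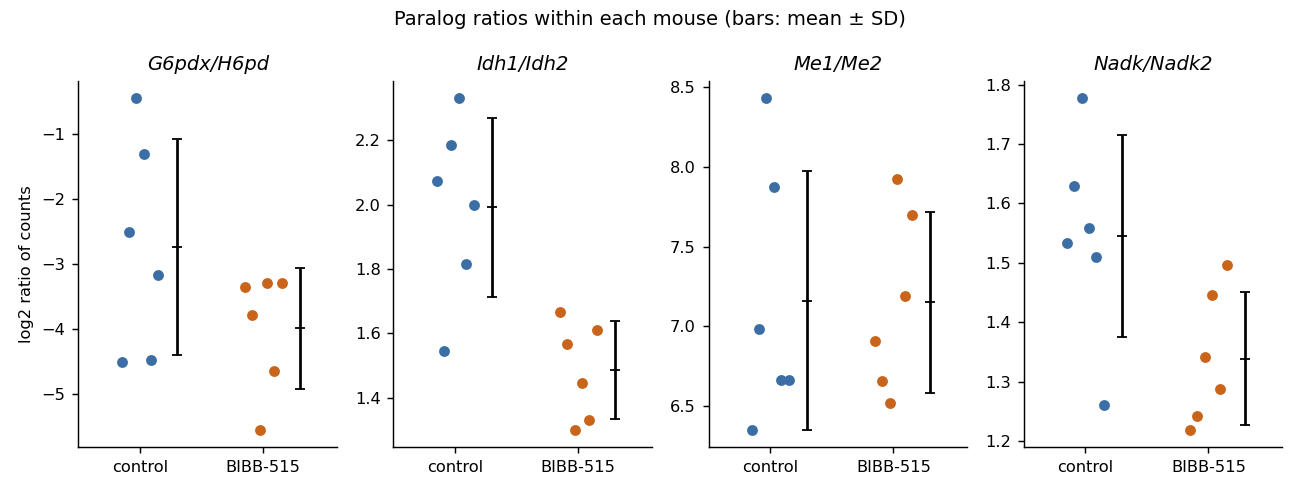
Log2 ratio of the counts of a cytosolic enzyme and its relative in each mouse, with mean ± SD beside the points of each diet (n = 6 mice each). The Idh1/Idh2 ratio is lower on BIBB-515 (1.49 against 1.99), while the other ratios overlap more.

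Levels of different genes were compared only per kilobase of exon (CPM per kb). In control mice the order was Idh1 (182 ± 17.6 CPM per kb, SD, n = 6), Me1 (128 ± 95.2), Nadk (101 ± 7.57), Taldo1 (94.9 ± 13.6), H6pd (70.0 ± 15.8), Tkt (58.7 ± 17.4), Pgd (53.0 ± 37.0), Pgls (49.1 ± 4.93), G6pdx (29.7 ± 30.0) and Rpia (6.36 ± 2.87). Me1, with a range of 49.8 to 307 CPM per kb, overlapped with each of the others except Rpia. Idh1 and Nadk did not overlap, at 165 to 210 and 87.0 to 108 CPM per kb. G6pdx ranged from 5.37 to 85.9 CPM per kb in control mice, so that its place in the order changed with the mouse. In BIBB-515 mice it ranged from 4.00 to 16.1 CPM per kb and stood between Rpia (4.74 to 6.47) and Pgd (33.8 to 62.1), overlapping with Rpia only.

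The per-exon tables were used to see whether a gene's difference was spread over its exons. The rows of a gene come from the same mice, so their number is no separate support for a difference. For G6pdx, 13 of 13 exon rows were lower in the mean of the BIBB-515 mice, with a median log2 ratio of -1.47. The first 2 rows, counted from the 5′ end, were least lowered, at -0.33 and -0.89, and the others lay between -1.70 and -1.30. The second row is covered over its 128 bases by an exon of Ikbkg on the other strand in GENCODE M21, and counting was without strand. All 14 rows of Tkt were higher, between 0.28 and 0.43, and all 5 rows of Pgls were higher, between 0.22 and 0.30. For Pgd 13 of 13 rows and for Me1 14 of 14 rows with at least 300 reads were lower, with medians of -0.22 each, which rests on control mouse 3 as above. The G6pdx means also rest in part on that mouse, without which the gene's log2 fold change was -0.74 in place of -1.43. Neither G6pdx (edgeR FDR 0.0998) nor Tkt (edgeR FDR 0.12) was called with all mice.

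**Figure D5:**
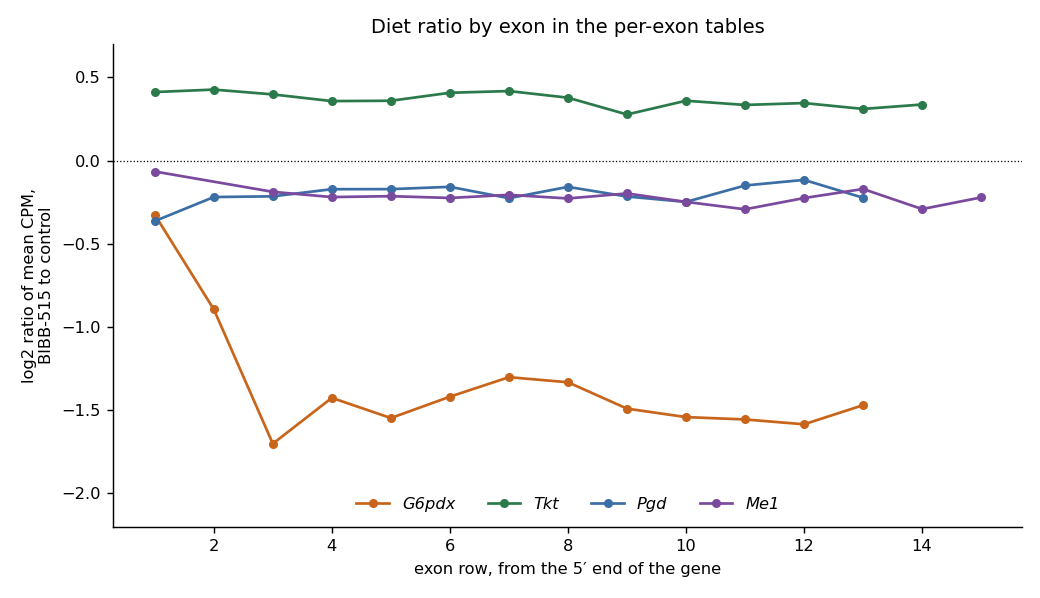
Log2 ratio of mean CPM, BIBB-515 to control, for each exon row from the 5′ end of G6pdx, Tkt, Pgd and Me1 in the per-exon tables. G6pdx lies near -1.47 from the third row on, and Tkt lies above 0 in all 14 rows. Neither gene was called with all mice, and the rows of a gene come from the same mice.

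Reads shared with other genes were few for most of the 10. The tables of primary alignments held 5.85% more counts for Tkt, 2.05% more for Me1 and at most 0.213% more for each of the other 8 genes. Of the 50-base words of the GENCODE transcripts, 28.3% of Me1, 16.9% of G6pdx and 18.9% of Pgls were also in transcripts of other genes, chiefly Gm7049, Ikbkg and Fam129c. G6pd2, a retrogene relative of G6pdx, had 2 counts in all 12 libraries together. In the annotation of the tables Tkt overlapped Mir3076 by 1 base and Me1 overlapped A330041J22Rik by 30 bases.

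The genes around these enzymes were taken from lists. Over all 12481 tested genes, edgeR called 13.7% in either direction and DESeq2 called 2244. At an unadjusted p under 0.05 by edgeR there were 3713, and 7.07% had groups that did not overlap. Of 19 tested NADPH-using enzymes, 9 were higher and 0 lower by edgeR, with 10 higher and 0 lower at an unadjusted p under 0.05 and 10 higher and 0 lower by DESeq2, and the median log2 fold change was 0.37 against -0.01 over all tested genes. Gsr, glutathione reductase, had 43.0 to 53.2 CPM in control and 74.0 to 91.3 CPM in BIBB-515 mice (log2 fold change 0.83, edgeR FDR 1.95e-06). The groups did not overlap for Tm7sf2 (0.79) and Cyp51 (1.17), which reduce and demethylate sterols after lanosterol, nor for the carbonyl and aldehyde reductases Cbr1 (0.53) and Akr7a5 (0.39). Of 13 NRF2 targets and partners, 5 were higher and 0 lower by edgeR and by DESeq2, with 7 higher and 0 lower at an unadjusted p under 0.05. They were Gsr, the epoxide hydrolase Ephx1 (1.61), the sulfiredoxin Srxn1 (0.65), the quinone reductase Nqo1 (0.74, groups overlapping) and the small MAF protein Mafg (0.27).

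Among 22 tested neighbours of the pathway, 3 were higher and 2 lower, beside 13.7% of all tested genes called in either direction. Idh2, the deoxyribose-phosphate aldolase Dera (0.31) and the sedoheptulose kinase Shpk (0.26) were higher. Rgn, the gluconolactonase regucalcin, fell by 0.47 on the log2 scale (edgeR FDR 0.000631) and the ribokinase Rbks fell by 0.24 (edgeR FDR 0.0446). The call of Shpk was lost without BIBB-515 mouse 6 or 11, and that of Rbks was kept only without control mouse 2 or BIBB-515 mouse 11 (edgeR FDR up to 0.0975). With all mice, the call of Rbks was also lost with upper-quartile scaling (edgeR FDR 0.0502), library totals (0.097), no filter on low counts (0.0872) and the tables of primary alignments (0.0543). Of 9 genes of the citrate and malate cycle, 1 was higher, the cytosolic aconitase Aco1 (215 to 255 CPM in control and 293 to 319 CPM in BIBB-515 mice, log2 fold change 0.35, edgeR FDR 0.002). The count was 4 higher with DESeq2 and 4 higher without control mouse 3. DESeq2 called 2244 of all 12481 genes, and the fit without that mouse called 14.6% of all tested genes.

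Of the 12 lipogenic genes, 1 was lower and 0 higher by edgeR, with 4 lower and 0 higher at an unadjusted p under 0.05 and 2 lower and 0 higher by DESeq2. Over all 12481 tested genes, edgeR called 13.7%, DESeq2 called 2244, and 3713 had an unadjusted p under 0.05 by edgeR. The gene called was Pklr, the liver pyruvate kinase (430.2 to 1278 CPM in control and 298 to 527 CPM in BIBB-515 mice, log2 fold change -0.89, edgeR FDR 0.0194). The median log2 fold change over the list was -0.63, and without control mouse 3 it was -0.17, with Fasn at -0.05 in place of -0.70, Acly at -0.18 in place of -0.93 and Elovl6, a fatty acid elongase, at 0.03 in place of -0.72. Pklr kept its call without that mouse (log2 fold change -0.67, edgeR FDR 0.0325). Of 12 genes that make or use glucose-6-phosphate, the fructose-bisphosphatase Fbp1 fell by 0.38 on the log2 scale (edgeR FDR 0.00464), while the glucose-6-phosphatase subunit G6pc3 was 0.28 higher (edgeR FDR 0.0347). The call of G6pc3 was lost without control mouse 1, 3 or 6 or BIBB-515 mouse 6, 7, 8, 10 or 11 (edgeR FDR of 0.0523 to 0.0728). Lss itself, the gene of the inhibited enzyme, had 34.8 to 166 CPM in control and 112 to 179.7 CPM in BIBB-515 mice, with its highest control value in mouse 3 (log2 fold change 0.78, edgeR FDR 0.0854). Without control mouse 3, the only control mouse within the BIBB-515 range, the log2 fold change of Lss was 1.15 (edgeR FDR 0.00266). Leaving that mouse out fixed the separation of the groups. In the other 11 fits with a mouse left out, Lss was not called (edgeR FDR of 0.106 to 0.158).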

How the data were processed

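Liver RNA-seq libraries of 12 mice were analysed, 6 per diet. The authors deposited counts of reads per gene, made with featureCounts (Subread 1.6.3) on STAR 2.5.3a alignments and a UCSC mm10 annotation, without strand and without reads over several genes. Their per-exon counts and the counts of primary alignments were used where named. Per-transcript tables were not used. The test, edgeR 4.0.16 (quasi-likelihood, TMM, at least 1 CPM in 2 of 12 samples, Benjamini-Hochberg over all genes), was checked on simulated counts. Exact permutation tests used 924 labelings of the mice, whose smallest two-sided p is 0.00216. Intervals are at 95%. Ratios had 0.5 added to each count. Named genes were the 10 enzymes, relatives used in ratios, Lss and at most 5 genes per list with the smallest p past FDR 0.05 and an average log2 CPM of at least 1. A result that this rule would name is not reported here. A few further genes (Fasn, Scd1, Acaca) were named after their values were seen. The genes, lists and tests were chosen with earlier results of these data known. The labels give no batch. Mice of a group are separate animals, but cages are shared and unnamed. Precision rests on the 22764819 to 31058370 counts per library and on the spread between the 6 mice of each diet. Alternatives were DESeq2 1.42.0, limma 3.58.1 (voom), edgeR's likelihood ratio test, upper-quartile scaling, library totals, 2 other filters, primary alignments, 1 surrogate variable (sva 3.50.0) and leaving out each mouse. Protein sequences were not used here.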

Additional observations from a re-analysis of the deposited data

Results flagged for a closer look

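A single outlying mouse was looked for in 66 sets of values (6 mice of 1 diet each), covering the enzymes, their relatives, the named genes of the lists and the reads on genes, and 2 of them were beyond Dixon's 95% critical value, which chance passes in about 1 of 20. For Akr7a5, an aldehyde reductase, BIBB-515 mouse 6 was lowest, with a gap to the next mouse of 0.761 of the group's range. For Dera, the deoxyribose-phosphate aldolase, BIBB-515 mouse 11 was highest, with a gap of 0.762 of the range. None of the 10 enzymes was beyond the limit in either diet, control mouse 3 included.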

How the results depend on the processing

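The number of genes called over the whole table was 1705 (896 higher and 809 lower), 1489 to 2407 under the other settings and 1199 to 1865 with 1 mouse left out. With library totals in place of TMM it was 1496 higher and 490 lower. Of the 10 enzymes, 1 was called. The number was 0 without a filter on low counts and 4 with 1 surrogate variable (G6pdx, H6pd, Pgls and Tkt), and 0 to 1 with a mouse left out. The fit with a surrogate variable called 2407 of all 12481 tested genes. The listed context genes called numbered 22, 39 with 1 surrogate variable, and 19 to 25 with a mouse left out. The cause was not tested. With a mouse left out, the difference in the Idh1/Idh2 ratio ran from -0.59 to -0.44, in Nadk/Nadk2 from -0.26 to -0.16, in G6pdx/H6pd from -1.61 to -0.79 and in Me1/Me2 from -0.18 to 0.24. Log2 fold changes that changed sign were small or uncertain. Pgd was 0.00064 and Me1 0.0069 by limma-voom, and Idh1 was 0.037 with library totals. With a mouse left out Pgd ran from -0.32 to 0.23, Rpia from -0.29 to 0.022, Idh1 from -0.043 to 0.041, Me1 from -0.40 to 0.25 and Me2 from -0.048 to 0.13. Over 32 named genes and 672 alternative values, 608 kept direction and side of the threshold, 41 lost the call, 8 gained one and 15 changed sign. No paired analysis was possible because the groups share only 1 replicate number.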
